A study of Mus musculus with 15 samples.

Results

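The bile acid pools given to mouse ileal organoids differed in 2 ways, and the values below concern how those 2 differences combined. The pools were modelled on mice (M) or on humans (H), and in each model 90% or 10% of the bile acids were 12α-hydroxylated. The quantity measured is the interaction, (M90 minus M10) minus (H90 minus H10) on a log2 scale, over 12 libraries in 4 groups of 3 and over 13159 expressed genes of 23420 gene symbols. A positive interaction says that the step to the 90% share moved a gene further up, or less far down, in the mouse-like than in the human-like pools. Libraries entered by their group titles and genes by their expression.

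Organoids were grown from ileal crypts of C57BL/6 mice, used at passage 2 and kept for 24 h in DMEM with 0.2% BSA that held the M90, M10, H90 or H10 pool or vehicle. The labels give no genotype difference between groups. The 3 Vehicle libraries enter the fit and give the background level, which makes 15 libraries. The doses and the bile acids in each pool were not given, so pools are compared as whole mixtures. Nothing says whether libraries a, b and c came from separate cultures or animals, so p-values measure the spread between these libraries, which may be technical.

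Bile acids are made from cholesterol in the liver and taken back up in the ileum. Hydroxylation at the 12α position marks cholic acid and its bacterial product deoxycholic acid, and chenodeoxycholic acid lacks it. In ileal epithelium bile acids bind the nuclear receptor FXR, which induces proteins that bind and export them and the hormone Fgf15, by which the ileum restrains bile acid synthesis in the liver. Some bile acids also act on PXR, on the vitamin D receptor and on membrane receptors, and many are detergents.

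Total counts ran from 11245807 in H90 c to 28989526 in M10 a. All 16 epithelial markers were detected in every library, while Ptprc, a leukocyte marker, stayed at or below 2.48 CPM (CPM is a gene's share of the library's counts, scaled to the same total in each library) and Pdgfra, a fibroblast marker, at or below 0.31 CPM. The transcripts Mup20 and Col1a1 split the libraries across the groups. Mup20, a major urinary protein of liver, had 0.356 to 0.583 CPM in M90, M10, H90 b and H90 c and 23 to 35.9 CPM in H90 a, H10 and Vehicle. The collagen Col1a1 had 3.74 to 8.63 CPM in the first 8 libraries and 0 to 0.107 CPM in the other 7. Dcn, another fibroblast marker, did not follow, with 0 to 0.356 CPM in the first 8 and 0.139 to 0.348 CPM in the other 7. H90 thus has libraries of both sets, and in a fit with a term for library set the human-like step rests on H90 a against H10; counts from that fit stand beside the leading results. Low counts were also uneven: H90 and M10, whose means enter the interaction with a minus sign, had between 213 and 297 genes with a single count per library, and the remaining 9 libraries had between 450 and 603. By mean level over the pools, 2.24% of genes under 2 CPM were called and 32.2% of those at 100 CPM or more. H90 a also lay apart from its replicates in a chi-square summed over raw counts, at 17.6 per degree of freedom from H90 b and 15.6 from H90 c. It was 7.28 between H90 b and c and at most 10.3 within any other group. That sum includes Rn45s, of the ribosomal RNA precursor, with 14100 CPM in H90 a and 3120 and 3220 CPM in H90 b and c. A gene with such high counts can weigh heavily in the sum, and the distance without Rn45s was not computed. The part of these library features in single results was not tested.

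The hydroxylated share acted differently in the 2 models for 1943 genes, 14.8% of those tested, of which 1033 (7.85%) had a higher and 910 (6.92%) a lower interaction. A call here and below is an adjusted p under 0.05 in edgeR's quasi-likelihood test, adjusted by Benjamini-Hochberg across the whole table. An interaction of at least 2-fold was called for 282 genes (2.14%), 160 higher and 122 lower. With the library set term 1442 were called, 1288 of them among the 1943 and all of these with the same sign, and without H90 a 1746 were called, 1565 of them among the 1943.

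Each step alone moved more genes. M90 minus M10 called 5428 genes (41.2%), 2799 up and 2629 down, and H90 minus H10 called 4815 (36.6%), 2398 up and 2417 down. Of the 3192 genes called in both, 2997 moved the same way. Across the 13159 genes the log2 changes of the 2 steps, which share no library, had a Pearson r of 0.508 and a Spearman rho of 0.52; genes are not independent replicates, so no p is given.

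The interaction genes fell into several kinds. The mouse-like step alone was called for 698 of the 1943 (35.9%) and the human-like step alone for 478 (24.6%). Both were called with the same sign for 369 genes with the larger change in the mouse-like pools and for 170 with the larger change in the human-like pools. Opposed steps, both called, were found for 195 genes (10%): in 127 the mouse-like step was up and the human-like step down, and in 68 the reverse. For 33 genes neither step was called. By the distance of each pool's mean log2 level from the median of the other 3, M10 stood farthest for 801 of the 1943 (41.2%) and H90 for 701 (36.1%), beside 39.3% and 37.1% of all tested genes. M90 stood farthest for 377 and H10 for 64, which is 3.29% of interaction genes beside 9.04% of all tested genes.

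**Figure D1:**
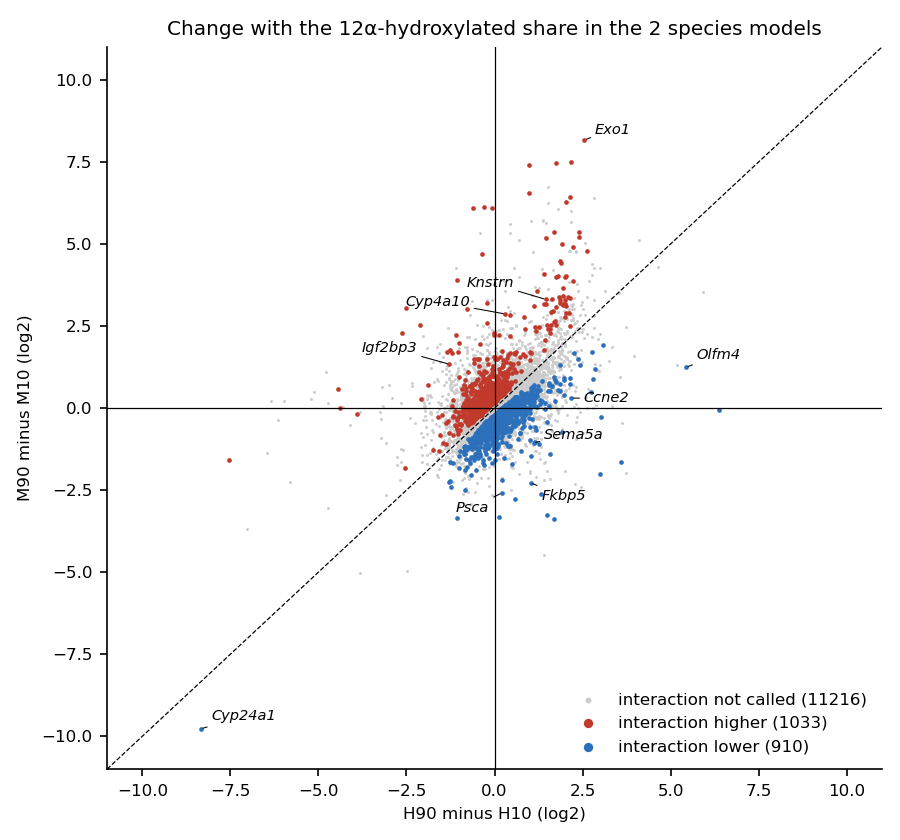
Log2 change of each of 13159 tested genes with the step to the 90% share in human-like pools (x axis, H90 minus H10) and in mouse-like pools (y axis, M90 minus M10). Red points are the 1033 genes with a higher interaction, above the dashed line of equal change, and blue points the 910 with a lower one, below it.

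Several FXR targets rose with the 90% share in mouse-like pools and fell in human-like pools, among them Fabp6, Nr0b2 and Slc51b. Of 23 tested genes of bile acid transport and FXR response, 10 higher and 2 lower interactions were called, with a median of 0.34 against 0.00713 over all tested genes. In the mouse-like step 4 rose and 8 fell (median 0.03), and in the human-like step 2 rose and 13 fell (median -0.49). Higher and lower calls were 10 and 2 with the library set term and 10 and 2 without H90 a.

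Fabp6 encodes the ileal bile acid binding protein of the cytosol, a strong FXR target (chromosome 11, 43596049 to 43601540, GRCm38). It had 10703, 10612 and 10457 CPM in M90 and 7348, 7632 and 6969.6 CPM in M10, and 4463, 5390.3 and 5199 CPM in H90 and 6899, 7502 and 7605 CPM in H10 (CPM of single genes use TMM-scaled totals from here on). M90 lies above M10 and H90 below H10 with no overlap, and Vehicle had 46.1 to 62.4 CPM. Its interaction was 1.08 (SE 0.140, adjusted p = 0.000346), from 0.53 in the mouse-like and -0.55 in the human-like step.

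Nr0b2, which encodes the repressor SHP, turned the same way (chromosome 4, 133553376 to 133556536). It had 23.6, 23.9 and 23.5 CPM in M90 and 12.3, 17.3 and 14.5 CPM in M10, and 5.91, 8.02 and 5.08 CPM in H90 and 11.6, 13.2 and 10.1 CPM in H10. All 3 M90 libraries lie above every other pool library and all 3 H90 libraries below, with an interaction of 1.55 (SE 0.325, adjusted p = 0.00146). Slc51b and Slc51a form the exporter of bile acids at the basolateral membrane, and the interaction of Slc51b was 0.89 (SE 0.0690, adjusted p = 7.99e-12), that of Slc51a 0.71 (SE 0.0628, adjusted p = 1.01e-10). Slc51b averaged 738 ± 15.5 CPM in M90 and 636 ± 14.6 CPM in M10, and 369 ± 29.7 CPM in H90 and 589.7 ± 29.2 CPM in H10 (SD, n = 3 each), a rise in the mouse-like and a fall in the human-like pools, while the mouse-like step of Slc51a was not called (0.09).

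Fgf15 fell in both models but less in the mouse-like one. It had 1064, 958 and 1013 CPM in M90 and 1420.4, 1455 and 1250.3 CPM in M10, and 345, 413 and 375 CPM in H90 and 961, 998 and 958 CPM in H10. The H90 libraries are the lowest of the pools, with an interaction of 0.92 (SE 0.0993, adjusted p = 3.38e-06) from steps of -0.44 and -1.37. Nr1h4, the gene of FXR itself, had 0.28 (SE 0.0742, adjusted p = 0.00783) from steps of -0.16 and -0.44. Osgin1, a stress-responsive growth inhibitor, averaged 137 CPM in M90 and 121 CPM in M10, and 74.9 CPM in H90 and 123 CPM in H10, with an interaction of 0.91 (adjusted p = 4.52e-07).

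The apical importer ran the other way. Slc10a2, the sodium-dependent bile acid transporter, had 50.1, 40.96 and 42.9 CPM in M90 and 145, 161 and 117 CPM in M10, and 42.99, 49.8 and 35.5 CPM in H90 and 67.5, 75.6 and 66.8 CPM in H10. M10 is highest and M90 and H90 overlap, with an interaction of -0.97 (SE 0.197, adjusted p = 0.00405). Apoc2, an apolipoprotein, averaged 70.5 CPM in M90 and 149 CPM in M10, and 25.2 CPM in H90 and 23.5 CPM in H10, with an interaction of -1.17 (SE 0.123, adjusted p = 7.4e-09). For Slc30a10, a manganese exporter, the interaction was not called (0.48, 95% interval 0.12 to 0.84, adjusted p = 0.0681), and both steps were down, with log2 changes of -1.43 and -1.92. Under 12 alternatives, DESeq2 among them, the interaction of Slc30a10 was called.

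**Figure D2:**
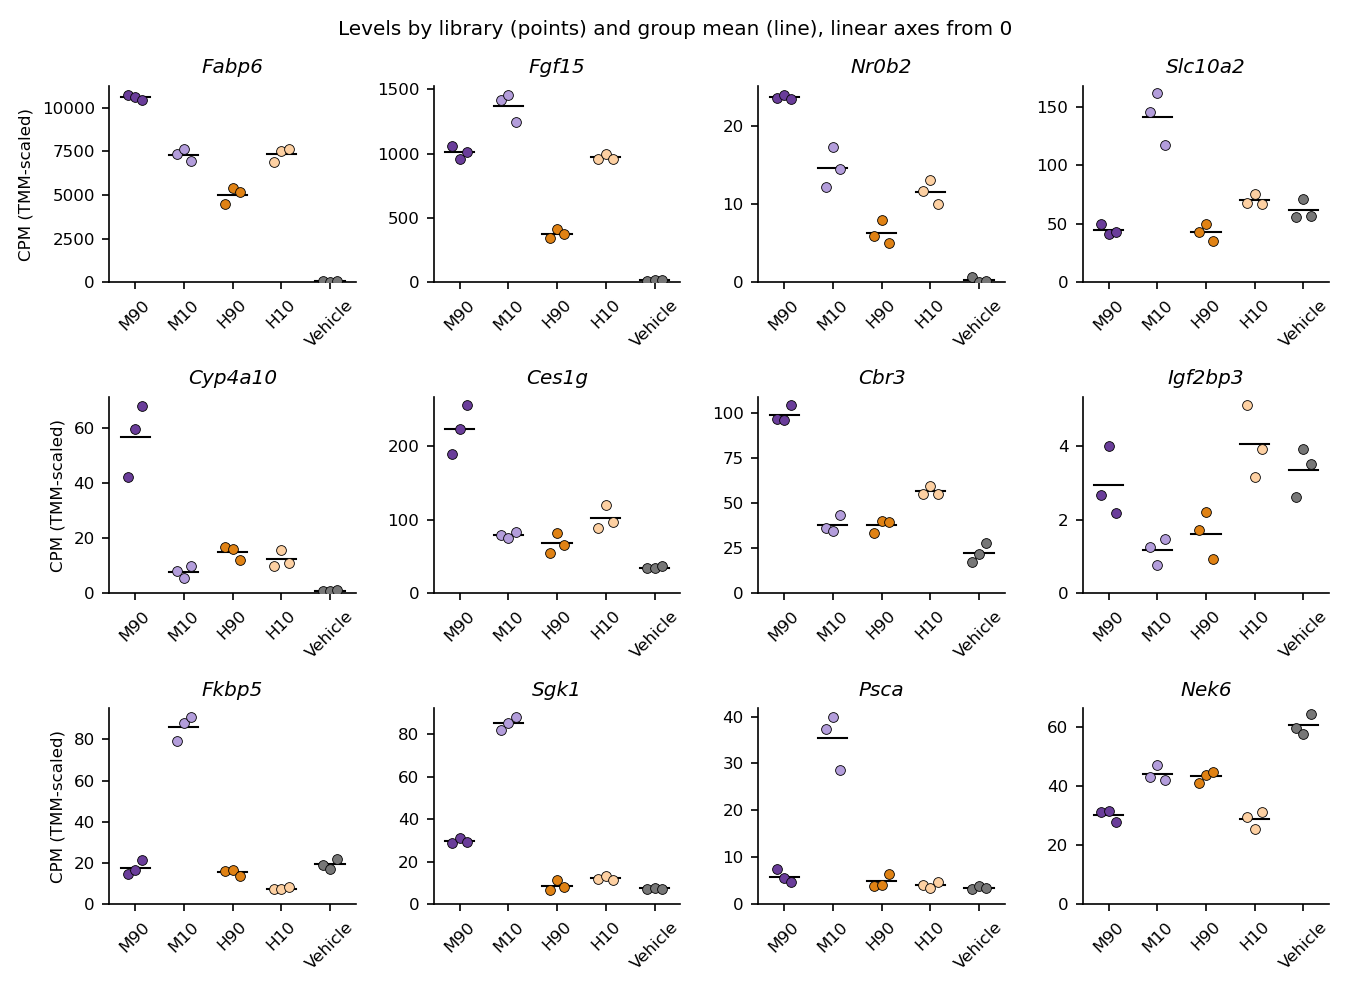
Levels in CPM on linear axes from 0 for 12 genes in each library (points) with group means (lines), in the order M90, M10, H90, H10 and Vehicle. Fabp6 is highest in M90 and lowest of the pools in H90, Cyp4a10, Ces1g and Cbr3 are highest in M90, Fkbp5, Sgk1 and Psca are highest in M10, and Nek6 lies higher in M10 and H90 than in M90 and H10.

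Genes of fatty acid oxidation had mostly higher interactions. PPARα is a nuclear receptor for fatty acids that drives their oxidation in mitochondria and peroxisomes. Of 42 tested PPAR targets and oxidation genes 32 higher and 0 lower interactions were called, with a median of 0.47; the counts were 30 and 0 with the library set term and 30 and 0 without H90 a. In the mouse-like step 29 rose and 2 fell (median 0.30), and in the human-like step 4 rose and 18 fell (median -0.14). Of the 32, 9 were called up in the mouse-like and down in the human-like step, 15 in the mouse-like step alone, 5 in the human-like step alone and 3 in both with the same sign. Estimates were above 0 for 41 of the 42, called or not.

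Cyp4a10, a fatty acid omega-hydroxylase and a classical PPARα target (chromosome 4, 115518264 to 115533649), had 42.3, 59.6 and 67.97 CPM in M90 and 8.12, 5.55 and 9.78 CPM in M10, and 16.95, 15.99 and 12.2 CPM in H90 and 9.86, 15.9 and 11.2 CPM in H10. M90 stands above all other libraries, and the interaction was 2.56 (SE 0.296, adjusted p = 3.94e-06). Acaa1b, a peroxisomal thiolase, had 320.0, 369 and 380.3 CPM in M90 and 132, 133 and 157 CPM in M10, and 86.5, 102 and 95.7 CPM in H90 and 99.5, 115 and 111 CPM in H10. Its M90 libraries are again the highest, with an interaction of 1.54 (SE 0.110, adjusted p = 1.2e-10) and 10.4 to 12.7 CPM in Vehicle.

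Vnn1, a pantetheinase under PPARα control, moved in both models. It averaged 219 ± 18.6 CPM in M90 and 151 ± 7.58 CPM in M10, and 87.3 ± 10.9 CPM in H90 and 113 ± 0.651 CPM in H10 (SD, n = 3 each), with an interaction of 0.91 (SE 0.0977, adjusted p = 1.79e-08). Decr1, a mitochondrial dienoyl-CoA reductase, had 0.72 (adjusted p = 1.01e-08), and Plin2, a lipid droplet coat protein, had 0.68 (adjusted p = 4.05e-08), both with a rise in the mouse-like and a fall in the human-like step.

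Respiratory chain subunits had smaller interactions, and those called were all higher. Of 50 tested members 21 higher and 0 lower interactions were called (median 0.14, with 42 estimates above 0), and for all 21 only the mouse-like step was called. In that step 33 rose and 2 fell, and in the human-like step 7 rose and 1 fell. Cox5b, a subunit of cytochrome c oxidase, had 365, 363 and 354 CPM in M90 and 277, 281 and 287 CPM in M10, and 288, 282 and 293 CPM in H90 and 279, 291 and 288 CPM in H10. The M90 libraries stand above all others, with an interaction of 0.35 (SE 0.0611, adjusted p = 6.74e-05), and Ndufa10 of complex I, Atp5h of ATP synthase and Uqcrq of complex III had 0.36, 0.33 and 0.32. The counts were 17 and 0 with the library set term, 16 and 0 without H90 a and 13 and 0 without H10 c.

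Antioxidant genes formed a similar block. NRF2, encoded by Nfe2l2, is a transcription factor that induces glutathione synthesis and detoxifying enzymes through antioxidant response elements. Of 31 tested genes 15 higher and 0 lower interactions were called (median 0.21). In the mouse-like step 16 rose and 5 fell, and in the human-like step 6 rose and 13 fell. The counts of interactions were 15 and 0 with the library set term and 15 and 0 without H90 a. Nfe2l2 itself had 585, 565 and 571 CPM in M90 and 461, 440.2 and 454 CPM in M10, and 559, 531 and 522 CPM in H90 and 674, 671 and 683 CPM in H10. M90 lies above M10 and H90 below H10 without overlap, with an interaction of 0.67 (SE 0.0573, adjusted p = 4.7e-11).

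Gclc, the catalytic subunit of the enzyme that limits glutathione synthesis, rose in the mouse-like and fell in the human-like step, as Nfe2l2 did. It had 280.4 ± 20.6 CPM in M90 and 199.8 ± 16.7 CPM in M10, and 183 ± 0.860 CPM in H90 and 243 ± 18.1 CPM in H10 (SD, n = 3 each). Its interaction was 0.90 (SE 0.0814, adjusted p = 2.18e-10), and that of Cat, catalase, was 0.77 (adjusted p = 9.57e-11). The core of the antioxidant response element, TGACNNNGC on either strand, was searched in RefSeq promoter windows of GRCm38.p6 that run from 250 bases before to 50 after each start. It was present for 6 of the 13 members with a higher interaction and a window (Nfe2l2, Me1, Gclm, Srxn1, Sod1 and Pgd), for 9 of the 26 tested members with a window, and for 14.0% of all gene symbols with a window. The windows of Gclm, the modifier subunit of the same enzyme (chr3:122245307-122245606, plus strand), and Srxn1, sulfiredoxin (chr2:152105274-152105573, plus strand), are printed to show the element, in capitals; a match describes letters and shows no binding.
Gclm: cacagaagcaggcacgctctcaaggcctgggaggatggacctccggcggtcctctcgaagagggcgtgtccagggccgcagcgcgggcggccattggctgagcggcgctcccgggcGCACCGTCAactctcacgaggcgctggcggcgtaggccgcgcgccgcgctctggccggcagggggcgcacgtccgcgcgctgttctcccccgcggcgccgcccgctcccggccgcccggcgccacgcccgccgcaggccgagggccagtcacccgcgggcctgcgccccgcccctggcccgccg
Srxn1: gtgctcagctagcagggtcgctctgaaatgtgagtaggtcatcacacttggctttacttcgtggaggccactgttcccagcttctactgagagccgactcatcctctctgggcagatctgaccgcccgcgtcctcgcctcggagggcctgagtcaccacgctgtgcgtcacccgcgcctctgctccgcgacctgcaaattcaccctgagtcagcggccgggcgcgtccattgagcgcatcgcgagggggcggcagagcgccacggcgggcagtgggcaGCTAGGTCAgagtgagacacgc
Gclm had an interaction of 0.46 (adjusted p = 1.7e-05) and Srxn1 of 0.42 (adjusted p = 5.69e-05). For both the human-like step alone was called, at -0.37 for Gclm and -0.50 for Srxn1.

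Genes of drug metabolism included large interactions. The PXR and CAR list, named for receptors that induce such enzymes, had 17 higher and 4 lower interactions of 35 tested (median 0.21), 16 and 2 with the library set term and 15 and 4 without H90 a. Of its members 8 rose and 15 fell in the mouse-like step, and 1 rose and 24 fell in the human-like step. The carboxylesterase Ces1g, which hydrolyses esters, had 189.8, 224 and 256 CPM in M90 and 78.9, 75.98 and 83.3 CPM in M10, and 55.5, 81.8 and 66.5 CPM in H90 and 88.8, 120.2 and 97.7 CPM in H10. The carbonyl reductase Cbr3, which is outside the PXR and CAR list, had 96.99, 96.2 and 105 CPM in M90 and 36.5, 34.5 and 43.5 CPM in M10, and 33.7, 40.3 and 39.9 CPM in H90 and 55.01, 59.9 and 55.4 CPM in H10. Both were highest in M90 and both fell in the human-like step, with interactions of 2.09 (SE 0.216, adjusted p = 5.02e-05) for Ces1g and 1.97 (SE 0.160, adjusted p = 2.09e-09) for Cbr3.

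The carboxylesterases Ces1f and Ces1d and the glutathione transferase Gsta3 were called in the mouse-like step and not in the human-like step. Ces1f averaged 309 CPM in M90 and 105 CPM in M10, and 205 CPM in H90 and 185 CPM in H10, with an interaction of 1.41 (adjusted p = 1.56e-11). Ces1d had 1.58 (adjusted p = 7.42e-11) and Gsta3 1.31 (adjusted p = 7.42e-11). Ces1d, Ces1f and Ces1g are close paralogs, so reads could be split among them. Cyp3a13, a cytochrome P450, had a lower interaction of -0.51 (adjusted p = 1.14e-06), and averaged 758 CPM in M90 and 1947 CPM in M10, and 449 CPM in H90 and 811 CPM in H10.

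The smallest adjusted p of all genes belonged to Adh4, an alcohol dehydrogenase that oxidises retinol. Adh4 had 225, 224 and 231 CPM in M90 and 89.5, 93.02 and 95.7 CPM in M10, and 112, 98.8 and 94.3 CPM in H90 and 132, 143 and 142 CPM in H10. M90 lies above M10 and H90 below H10, with an interaction of 1.74 (SE 0.0876, adjusted p = 7.81e-17). Ephx1, microsomal epoxide hydrolase, had 1.32 (SE 0.0693, adjusted p = 1.51e-16). Adh4 and Ephx1 were chosen after their values were seen.

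**Figure D3:**
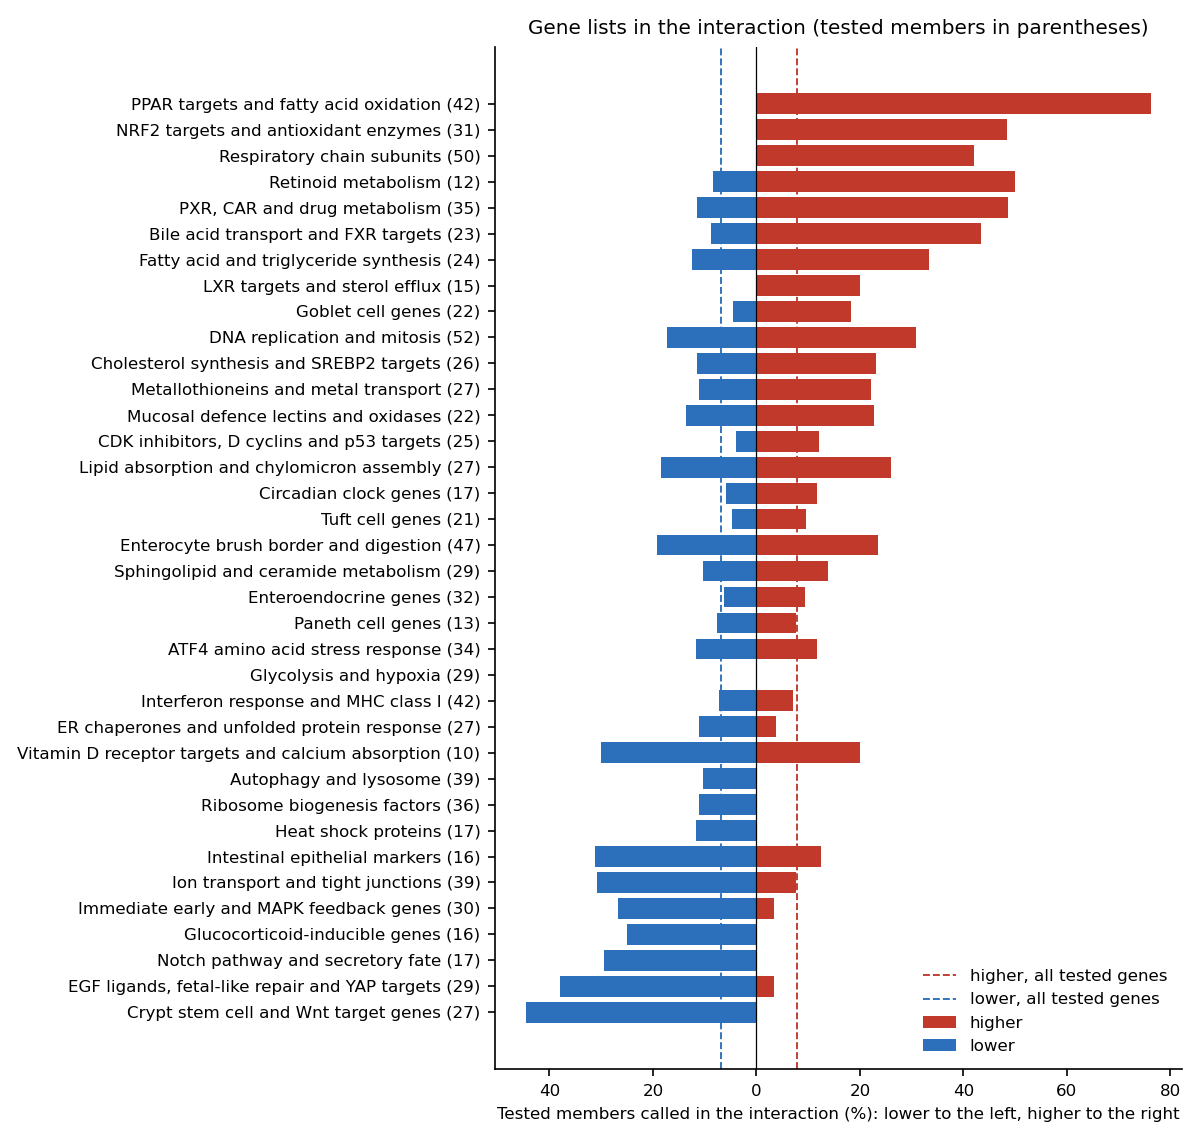
Share of each list's tested members (number in parentheses) with a higher interaction (red, to the right) or a lower one (blue, to the left), in percent, with the shares over all tested genes (7.85% and 6.92%) as dashed lines. PPAR targets reach 32 of 42 higher with 0 lower, and crypt stem cell and Wnt target genes 12 of 27 lower with 0 higher.

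Genes of the crypt base had lower interactions. In crypts, Wnt signals keep stem cells dividing, and their descendants stop dividing as they mature. Of 27 tested crypt stem cell and Wnt target genes 0 higher and 12 lower interactions were called (median -0.64), 0 and 11 with the library set term and 0 and 12 without H90 a. In the mouse-like step 7 rose and 5 fell (median 0.29), and in the human-like step 18 rose and 1 fell (median 0.71). For 4 of the 12 the mouse-like step was down and the human-like step up, for 5 the human-like step alone was called and for 3 both had the same sign. In RNA of whole organoids, fewer cells of a type and less RNA per cell cannot be told apart.

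Olfm4, a secreted glycoprotein of crypt base cells, had 0.502, 0.782 and 0.385 CPM in M90 and 0.0766, 0.128 and 0.560 CPM in M10, and 24.8, 18.6 and 16.3 CPM in H90 and 0.700, 0.260 and 0.431 CPM in H10, and 78.4 to 87.4 CPM in Vehicle. Only H90 stands above 1 CPM among the pools. The human-like step was 43.4-fold, the mouse-like step was not called, and the interaction was -4.20 (SE 0.750, adjusted p = 0.000193) with 2 to 18 counts in each M90 and M10 library. Slc12a2, a chloride cotransporter enriched in crypts, averaged 34.3 ± 4.73 CPM in M90 and 32.7 ± 5.46 CPM in M10, and 105 ± 9.82 CPM in H90 and 36.4 ± 2.52 CPM in H10 (SD, n = 3 each). Here too the H90 libraries stand above the other pools, with an interaction of -1.46 (SE 0.153, adjusted p = 4.47e-07).

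Myc, a Wnt target that drives growth, had 19.6, 22.4 and 26.5 CPM in M90 and 33.3, 26.5 and 24.7 CPM in M10, and 48.7, 45.2 and 52.1 CPM in H90 and 25.9, 29.6 and 29.4 CPM in H10. The mouse-like groups overlap, the human-like groups do not, and the interaction was -1.08 (SE 0.153, adjusted p = 2.47e-06) from steps of -0.30 and 0.78, both called. Smoc2, a secreted protein of stem cells, and Prom1, a membrane protein of crypts, fell in the mouse-like and rose in the human-like step. Their interactions were -1.01 (adjusted p = 1.38e-07) for Smoc2 and -0.64 (adjusted p = 3.23e-05) for Prom1. Ccnd2, a D-type cyclin, averaged 80.2 CPM in M90 and 90.4 CPM in M10, and 206 CPM in H90 and 115 CPM in H10, with an interaction of -1.02 (adjusted p = 1.12e-11).

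Notch genes held 0 higher and 5 lower interactions of 17 tested, but 0 and 2 with the library set term and 0 and 4 without H90 a. In the main fit 29.4% were called, beside 14.8% over all tested genes. Nrarp, a Notch target that feeds back on the pathway, had -1.41 (adjusted p = 4.49e-05). Cftr, the chloride channel, had 17.2, 20.9 and 21.4 CPM in M90 and 10.5, 10.3 and 12.6 CPM in M10, and 80.03, 78.8 and 68.2 CPM in H90 and 19.2, 20.6 and 18.2 CPM in H10. It rose in both steps, further in the human-like one, with an interaction of -1.13 (SE 0.139, adjusted p = 1.7e-07), and its list of ion transport and tight junctions had 3 higher and 12 lower of 39, or 4 and 9 with the library set term.

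**Figure D4:**
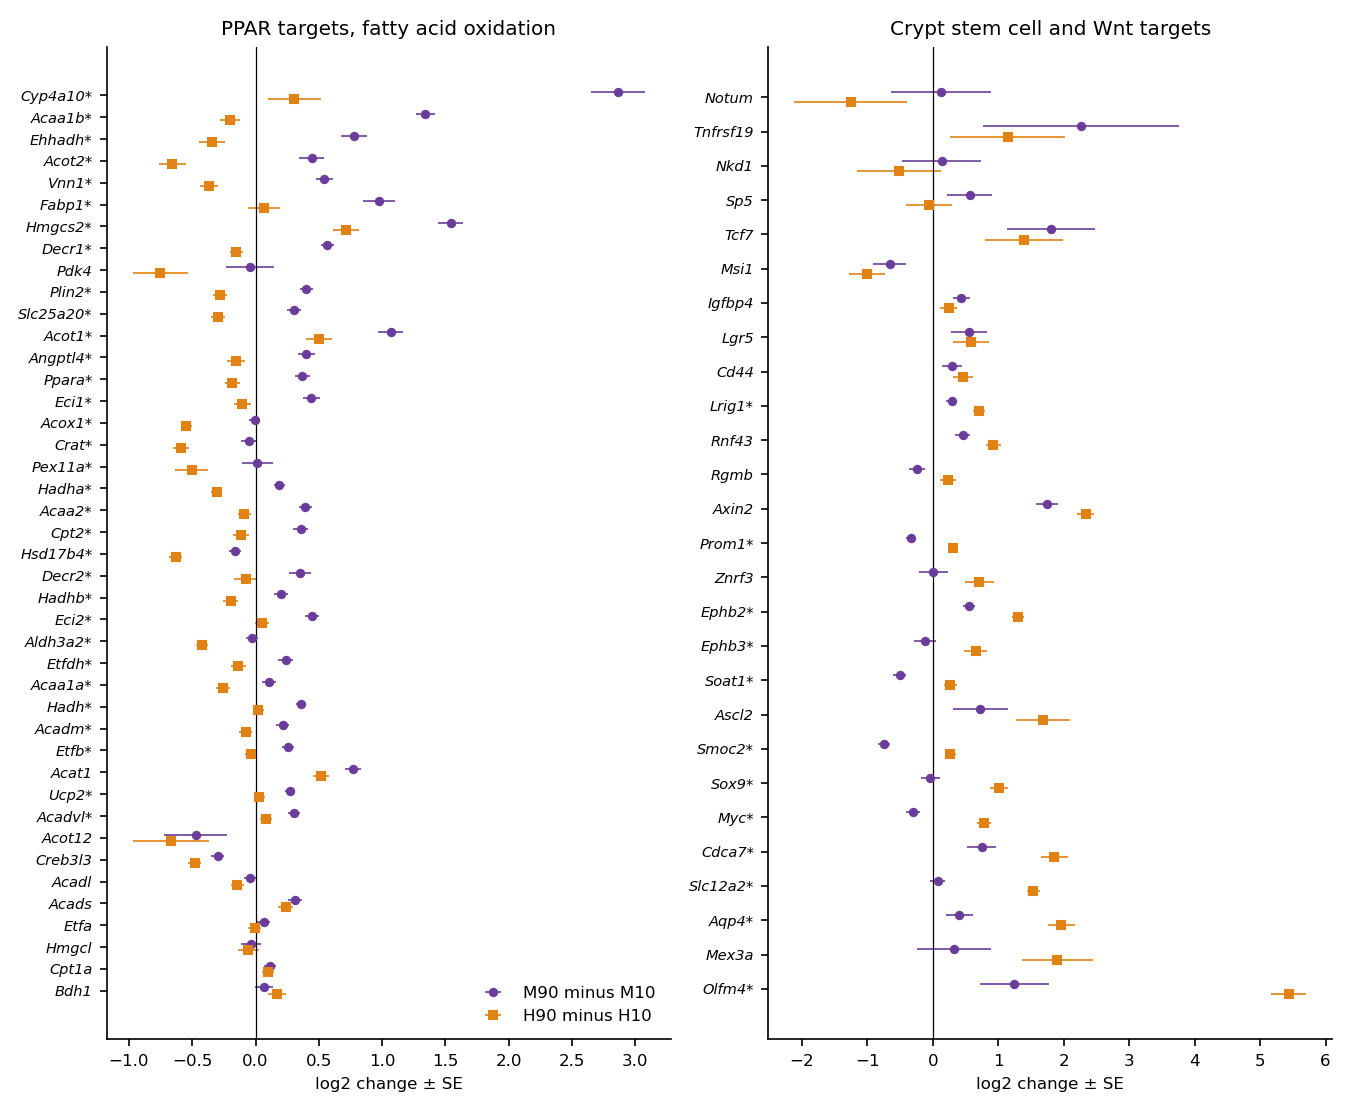
Log2 change ± SE with the step to the 90% share in mouse-like pools (circles, M90 minus M10) and human-like pools (squares, H90 minus H10) for each tested member of the PPAR list and of the crypt and Wnt list, sorted by the interaction. Asterisks mark a called interaction: 32 PPAR members with the circle to the right of the square, and 12 crypt members with the circle to the left.

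Cell cycle genes rose with the 90% share in both models, and the interaction split them. Cells copy their DNA in S phase, under E2F factors, and divide in M phase, under kinases such as Aurora A. Of 52 genes of DNA replication and mitosis 49 rose and 0 fell in the mouse-like step (median 2.10) and 52 rose and 0 fell in the human-like step (median 1.85). Interactions were 16 higher and 9 lower, or 12 and 9 with the library set term and 16 and 8 without H90 a.

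The 9 lower genes act in DNA replication or entry into S phase. They were Mcm2, Mcm3, Mcm6 and Mcm7 of the replicative helicase, Cdt1, which loads it, Pcna, the sliding clamp, Fen1, a flap nuclease, Rrm1 of ribonucleotide reductase, and Ccne2, cyclin E2. Of the 16 higher genes, Aurka, Aurkb, Plk1, Bub1, Cdc20, Ube2c, Ccna2, Ccnb1, Ccnb2, Birc5, Top2a and Mki67 are best known from G2 and M phase, and Esco2, Exo1, Fanci and E2f7 were the others. This split was noticed after the values were seen and has no test of its own.

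Mcm6 had 14.6, 17.5 and 15.7 CPM in M90 and 10.99, 10.6 and 10.9 CPM in M10, and 64.7, 57.6 and 63.6 CPM in H90 and 15.5, 20.7 and 17.4 CPM in H10, with an interaction of -1.24 (SE 0.143, adjusted p = 4.94e-08). Aurka, Aurora kinase A, had 12.01, 10.03 and 11.2 CPM in M90 and 1.15, 1.02 and 1.58 CPM in M10, and 38.8, 35.7 and 35.3 CPM in H90 and 13.04, 12.8 and 13.7 CPM in H10, with an interaction of 1.69 (SE 0.211, adjusted p = 2.24e-07). Both genes were highest in H90 and lowest in M10 among the pools, and Vehicle was higher still. The positive sign is one of folds: as a plain difference in CPM the interaction of Aurka was -13.6, and all 16 higher genes of the list turn negative in this way. Over all tested genes 72 called genes turn sign so, all of them with a higher interaction.

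Knstrn, a kinetochore and spindle protein outside the list, averaged 13.4 ± 0.947 CPM in M90 and 1.31 ± 0.539 CPM in M10, and 36.04 ± 2.78 CPM in H90 and 13.1 ± 0.572 CPM in H10 (SD, n = 3 each), with an interaction of 1.85 (adjusted p = 1.18e-07). Some mitotic and repair genes were at or near 0 in M10, where fitted folds depend on the prior count. Exo1, a DNA exonuclease, had 24, 42 and 45 counts in M90 and 0 in each M10 library, and Fanci, of the Fanconi anaemia repair pathway, had 14, 38 and 18 counts in M90 and 0 in each M10 library. Against a floor of 3 counts per library, M90 was at least 12.5-fold higher than M10 for Exo1 and at least 7.89-fold higher for Fanci, while H90 was 5.92-fold and 4.47-fold above H10. That floor allows for counting error alone and not for the scarcity of single counts in M10, 213 to 246 genes per library. The interaction of Fanci was not called by limma-voom with or without group weights, nor that of Exo1 with group weights. Esco2, a cohesin acetyltransferase, had 85, 99 and 97 counts in M90 and 1, 0 and 2 in M10, and Cenpm, of the centromere, had 65, 76 and 81 counts in M90 and 2, 0 and 4 in M10.

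**Figure D5:**
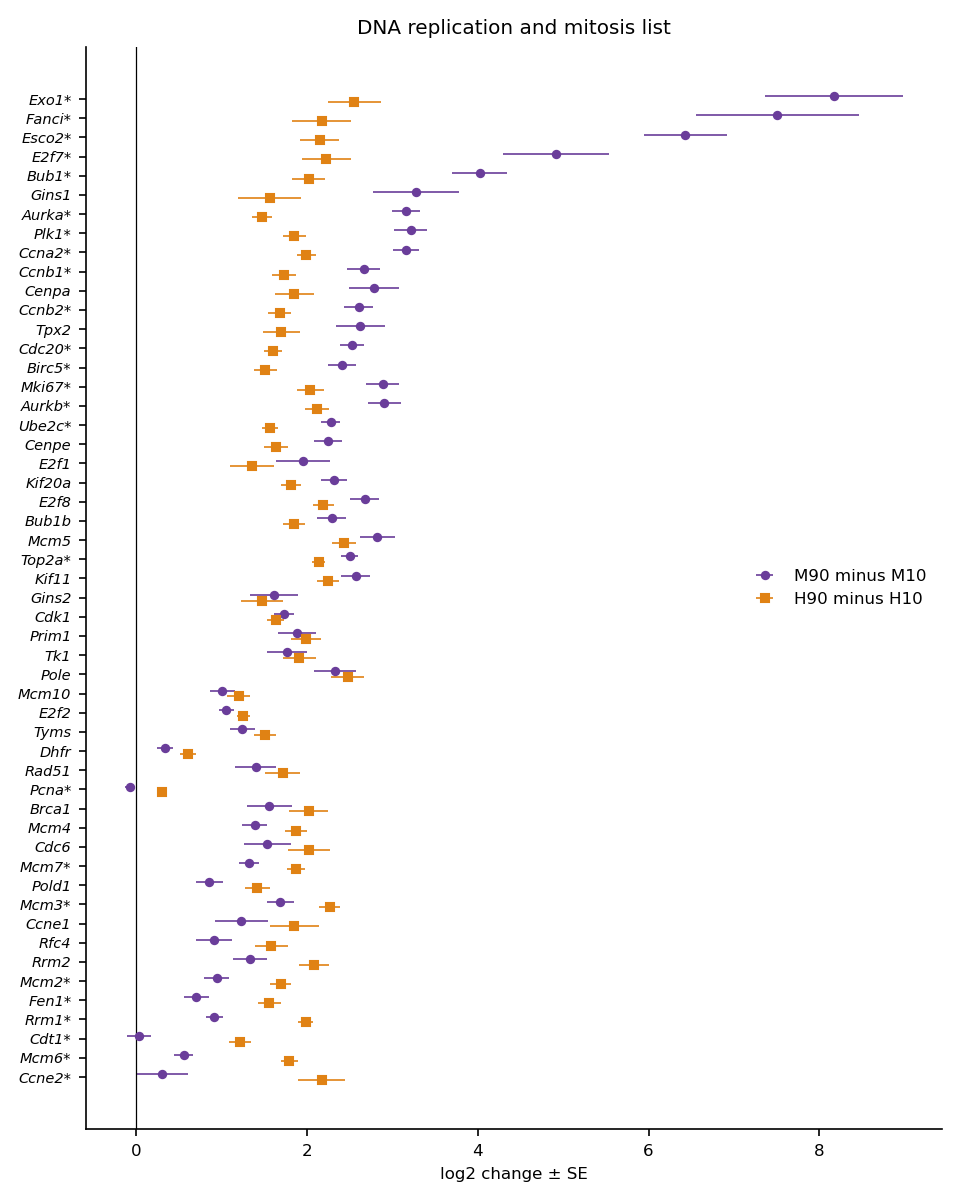
Log2 change ± SE with the step to the 90% share in mouse-like pools (circles) and human-like pools (squares) for the 52 genes of DNA replication and mitosis, sorted by the interaction, with asterisks on those called, 16 higher and 9 lower. The values of Exo1 and Fanci in mouse-like pools are fitted against 0 counts in M10.

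Promoter windows were searched for 2 elements of cell cycle genes, and the counts for higher and lower genes are given side by side with no test between these small groups. E2F sites (TTTCCCGC, TTTGGCGC, TTTCGCGC or TTTGCCGC, either strand) were in 4 of the 8 lower genes with a RefSeq window (Mcm6, Cdt1, Mcm7 and Mcm3), in 1 of the 12 higher ones (E2f7), in 10 of all 39 tested members with a window and in 2.6% of all gene symbols with a window. The cell cycle homology region, CHR (TTTGAA or TTCGAA, either strand), a known element of G2 and M phase genes, was in 8 of the 12 higher genes (Aurka, Cdc20, Plk1, Bub1, Ube2c, Ccnb2, Top2a and Mki67), in 3 of the 8 lower ones (Fen1, Mcm2 and Mcm7), in 17 of the 39 and in 21.7% of all gene symbols with a window. Windows of 2 genes of each kind are printed with the matches in capitals: E2F sites for Mcm6 (chr1:128359656-128359955, minus strand), where 1 run of capitals holds overlapping matches on both strands, and Mcm3 (chr1:20820263-20820562, minus strand), and the CHR for Cdc20 (chr4:118437294-118437593, minus strand) and Ube2c (chr2:164769679-164769978, plus strand).
Mcm6: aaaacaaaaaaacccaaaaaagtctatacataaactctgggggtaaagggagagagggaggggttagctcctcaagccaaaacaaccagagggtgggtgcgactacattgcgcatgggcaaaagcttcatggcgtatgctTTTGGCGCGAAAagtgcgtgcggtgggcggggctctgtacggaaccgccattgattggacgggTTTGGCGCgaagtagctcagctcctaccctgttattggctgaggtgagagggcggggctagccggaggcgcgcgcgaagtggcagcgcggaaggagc
Mcm3: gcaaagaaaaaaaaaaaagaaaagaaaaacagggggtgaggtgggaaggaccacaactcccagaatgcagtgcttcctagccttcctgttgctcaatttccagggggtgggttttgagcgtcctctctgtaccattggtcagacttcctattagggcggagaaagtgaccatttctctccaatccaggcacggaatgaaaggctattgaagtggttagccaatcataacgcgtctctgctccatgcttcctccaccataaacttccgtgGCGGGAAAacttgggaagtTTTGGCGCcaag
Cdc20: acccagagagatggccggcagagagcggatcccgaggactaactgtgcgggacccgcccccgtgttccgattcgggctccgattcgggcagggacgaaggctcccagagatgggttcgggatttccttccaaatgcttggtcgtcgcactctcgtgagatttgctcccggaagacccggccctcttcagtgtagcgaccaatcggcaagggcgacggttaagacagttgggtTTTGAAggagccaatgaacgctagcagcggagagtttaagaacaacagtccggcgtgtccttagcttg
Ube2c: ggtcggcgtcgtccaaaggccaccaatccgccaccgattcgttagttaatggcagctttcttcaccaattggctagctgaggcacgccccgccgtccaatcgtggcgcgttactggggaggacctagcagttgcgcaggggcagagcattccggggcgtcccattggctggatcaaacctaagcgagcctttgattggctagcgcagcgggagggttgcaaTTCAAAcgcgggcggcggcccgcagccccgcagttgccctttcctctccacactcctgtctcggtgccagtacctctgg
Cdc20, an activator of the anaphase-promoting complex, had an interaction of 0.92 (adjusted p = 0.000208). Ube2c, a ubiquitin-conjugating enzyme of that complex, had 0.71 (adjusted p = 0.000755), and Mcm3 had -0.57 (adjusted p = 0.0498). These matches describe the windows searched and show no binding.

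Another group of lower interactions came from genes that were high in M10. The most negative interaction among called genes with at least 1 CPM in each pool was that of Fkbp5, a cochaperone of steroid receptors and a classical glucocorticoid-induced gene (chromosome 17, 28399094 to 28517527). It had 14.5, 16.7 and 21.5 CPM in M90 and 78.9, 87.8 and 90.99 CPM in M10, and 16.2, 16.6 and 13.9 CPM in H90 and 7.49, 7.23 and 8.19 CPM in H10. M10 stands above all other libraries, Vehicle included (17.2 to 21.97 CPM), and H10 below all, so Fkbp5 fell with the 90% share in the mouse-like and rose in the human-like model. The interaction was -3.32 (SE 0.178, adjusted p = 2.09e-16).

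Of 16 glucocorticoid-inducible genes 0 higher and 4 lower interactions were called (median -0.08), 0 and 3 with the library set term and 0 and 3 without H90 a. That is 25% called, beside 14.8% over all tested genes, and 7 of the 16 estimates were above 0. Sgk1, a kinase that controls sodium transport, had 28.9, 31.1 and 29.5 CPM in M90 and 82.2, 85.2 and 88.4 CPM in M10, and 6.81, 11.6 and 8.04 CPM in H90 and 11.9, 13.4 and 11.4 CPM in H10. M10 is again the highest, with an interaction of -1.04 (adjusted p = 4.43e-05). Per1, a clock gene, had -0.84 (adjusted p = 1.31e-05), and Klf9, a Krüppel-like factor, -0.42 (adjusted p = 0.0384). The call of Klf9 was lost with the library set term (adjusted p = 0.0731) and without H90 a. It was also lost in other settings, among them scaling by library size only and a fit of the pool libraries alone.

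Psca and Ly6d, small membrane-anchored proteins of one family, were also high in M10. Psca had 7.48, 5.52 and 4.75 CPM in M90 and 37.4, 39.98 and 28.7 CPM in M10, and 3.95, 4.18 and 6.52 CPM in H90 and 4.04, 3.54 and 4.67 CPM in H10, with an interaction of -2.79 (SE 0.283, adjusted p = 3.05e-09). Ly6d had -2.20 (adjusted p = 7.69e-06). Mecom, a zinc finger transcription factor, averaged 8.73 CPM in M90 and 25.2 CPM in M10, and 15.4 CPM in H90 and 12.98 CPM in H10, with an interaction of -1.78 (adjusted p = 1.27e-08). Its M10 libraries (24.0 to 27.5 CPM) stood above the other pools but overlapped Vehicle (21.3 to 25.5 CPM), so Mecom was not raised above the background level. For Psca, Ly6d and Mecom the human-like step was not called.

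Genes of epithelial repair and growth factor signalling mostly fell with the 90% share in both models, and many had a lower interaction. Of 29 tested EGF ligands, fetal-like repair genes and YAP targets 1 higher and 11 lower interactions were called (median -0.27), 1 and 9 with the library set term and 1 and 10 without H90 a. In the mouse-like step 0 rose and 23 fell, and in the human-like step 2 rose and 19 fell. Msln, mesothelin, averaged 22.2 CPM in M90 and 58.9 CPM in M10, and 19.3 CPM in H90 and 28.3 CPM in H10, with an interaction of -0.86 (adjusted p = 7.6e-05). Tead1, the DNA-binding partner of YAP, had -0.91 (adjusted p = 4.17e-05), the keratin Krt7 -0.37 (adjusted p = 0.000163) and the calcium-binding S100a6 -0.44 (adjusted p = 5.02e-05). Immediate early and MAPK feedback genes had 1 higher and 8 lower interactions of 30 (1 and 5 with the library set term, 1 and 6 without H90 a), among them Egr1, a growth factor-induced transcription factor, at -0.70 (adjusted p = 0.000101).

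Some genes with opposed steps had steps of nearly equal size. Nek6, a mitotic kinase, had 31.3, 31.4 and 27.9 CPM in M90 and 43.1, 47.2 and 42.1 CPM in M10, and 41.2, 43.8 and 44.8 CPM in H90 and 29.6, 25.6 and 31.1 CPM in H10. The M90 and H10 ranges overlap, as do those of M10 and H90, and the interaction was -1.13 (SE 0.126, adjusted p = 2.89e-08) from steps of -0.55 and 0.58. Marcksl1, an actin regulator, had -1.50 (adjusted p = 5.32e-07) from steps of -0.76 and 0.74. Sema5a, an axon guidance protein, had -2.17 (adjusted p = 3.07e-07) from steps of -1.06 and 1.11. The steps differed more in size for Tnfrsf1b and Prim2. Tnfrsf1b, a TNF receptor, had -1.86 (adjusted p = 0.00017) from steps of -0.67 and 1.19. Prim2, a primase subunit, had -1.70 (adjusted p = 4.18e-05) from steps of -0.56 and 1.13.

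In the other direction, Fbp1, fructose bisphosphatase of gluconeogenesis, had 62.03, 48.4 and 47.5 CPM in M90 and 35.3, 31.4 and 26.99 CPM in M10, and 38.1, 41.3 and 33.8 CPM in H90 and 66.2, 48.9 and 61.6 CPM in H10. M90 lies above M10 and H90 below H10, with an interaction of 1.38 (SE 0.213, adjusted p = 0.000301). Plekho2, a pleckstrin homology domain protein, had 1.36 (adjusted p = 1e-05) from steps of 0.66 and -0.70, and Tnnt2, cardiac troponin T, 1.71 (adjusted p = 5.76e-05). Igf2bp3, an RNA-binding protein of fetal tissues, had the highest interaction of called genes with at least 1 CPM in each pool, 2.62 (SE 0.517, adjusted p = 0.000349), on low levels. It had 2.66, 4.00 and 2.18 CPM in M90 and 1.26, 0.769 and 1.48 CPM in M10, and 1.72, 2.22 and 0.931 CPM in H90 and 5.12, 3.17 and 3.92 CPM in H10. Fgfbp3, a binding protein of fibroblast growth factors, had 1.39 (adjusted p = 0.00527) and missed the threshold with the library set term (adjusted p = 0.0767).

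Other genes with large interactions had low levels. Slc28a1, a nucleoside transporter, had 2.10 (adjusted p = 0.00182), and Ttc36 had 1.74 (adjusted p = 0.00562). Celf6, an RNA-binding protein, Agxt2l1, a phospholyase, and Chrm4, a muscarinic receptor, had 1.98, 1.95 and 1.87 and lost the call with the library set term (adjusted p = 0.0628, 0.246 and 0.12). Each also lost it without some single libraries, M90 a among them. Ppat, of purine synthesis, averaged 1.88 CPM in M90 and 2.57 CPM in M10, and 8.65 CPM in H90 and 3.11 CPM in H10, with an interaction of -1.91 (adjusted p = 0.000537). Suv39h2, a histone methyltransferase, had -1.90 (adjusted p = 0.00403) and Nmral1, a redox sensor, -1.64 (adjusted p = 0.0436). Nmral1 lost the call with the library set term (adjusted p = 0.136), without H90 a and in other settings, limma-voom among them.

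Rpph1, the RNA of ribonuclease P, had 18.8, 6.72 and 7.79 CPM in H90 a, b and c, with an interaction of -2.24 (adjusted p = 0.00515). Rn45s, which comes from the ribosomal RNA precursor, was at 14100 CPM in H90 a and at 1740 to 3220 CPM elsewhere, and its part in the value of Rpph1 was not tested. Col1a1 had a fitted interaction of -6.42 (adjusted p = 0.0478) with 0, 5.58 and 8.21 CPM in H90 a, b and c, and it moved with the library sets.

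Several vitamin D target genes fell with the 90% share in both models. The vitamin D receptor also binds some bile acids. Of 10 tested genes 2 higher and 3 lower interactions were called, 2 and 1 with the library set term or without H90 b. Cyp24a1, which degrades vitamin D, had 0.653, 0.738 and 0.299 CPM in M90 and 499, 468 and 512 CPM in M10, and 0.431, 0.759 and 0.762 CPM in H90 and 223, 186 and 189.6 CPM in H10. Both 90% pools stayed under 1 CPM, and the interaction of -1.43 (SE 0.383, adjusted p = 0.00925) was not called with the library set term (adjusted p = 0.333), by limma-voom or without H90 b. S100g, which carries calcium, averaged 280.1 ± 32.7 CPM in M90 and 1003 ± 93.4 CPM in M10, and 117 ± 13.4 CPM in H90 and 680.2 ± 40.7 CPM in H10 (SD, n = 3 each), with an interaction of 0.71 (adjusted p = 0.00818). Vdr, the receptor gene, had 0.24 (adjusted p = 0.00309), and Atp2b1, a calcium pump, -0.33 (adjusted p = 0.00376).

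Lipid genes outside oxidation divided. Lipid absorption and chylomicron assembly had 7 higher and 5 lower of 27. Apoa4, an apolipoprotein of chylomicrons, had 554, 684 and 647 CPM in M90 and 2409.7, 2551 and 2739.8 CPM in M10, and 252, 257 and 272 CPM in H90 and 393, 406 and 433 CPM in H10. M10 is the highest, with an interaction of -1.37 (SE 0.104, adjusted p = 8.98e-08). Fatty acid and triglyceride synthesis had 8 higher and 3 lower of 24, among them Plb1, a brush border phospholipase, at 1.35 (adjusted p = 5.96e-09) and Scd1, stearoyl-CoA desaturase, at 0.60 (adjusted p = 4.71e-08). Cholesterol synthesis had 6 higher and 3 lower of 26 (5 and 0 with the library set term, 3 and 1 without M90 b, and 4 and 1 without H10 a, H10 c, H90 b or M10 b), LXR targets 3 and 0 of 15, and sphingolipid metabolism 4 and 3 of 29. Called were 34.6%, 20% and 24.1% of these lists in turn, beside 14.8% over all tested genes. Retinoid metabolism had 6 higher and 1 lower of 12: Retsat, which saturates retinol, had 0.77 (adjusted p = 3.4e-07), Aldh1a1, which makes retinoic acid, 1.14 (adjusted p = 4.66e-05), and the retinol carrier Rbp2 -0.67 (adjusted p = 3.67e-06).

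Mature enterocyte genes had 11 higher and 9 lower of 47 and a median of 0.01. Most fell in both models: 7 rose and 33 fell in the mouse-like step, and 1 rose and 34 fell in the human-like step. The amino acid transporters Slc6a20a and Slc6a19 had interactions of opposite sign, 0.96 (adjusted p = 1.7e-10) for Slc6a20a and -1.02 (adjusted p = 9.46e-07) for Slc6a19. Slc6a20a averaged 173 CPM in M90 and 121 CPM in M10, and 109 CPM in H90 and 149 CPM in H10. Slc6a19 averaged 36.7 CPM in M90 and 74.4 CPM in M10, and 26.6 CPM in H90 and 26.3 CPM in H10, so M90 is highest for the first and M10 for the second.

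Mucosal defence genes had 5 higher and 3 lower of 22. The antimicrobial lectin Reg3g averaged 382 CPM in M90 and 152 CPM in M10, and 621 CPM in H90 and 430.0 CPM in H10, with an interaction of 0.80 (adjusted p = 4.7e-11). Its relative Reg3b averaged 293 CPM in M90 and 502 CPM in M10, and 326 CPM in H90 and 278 CPM in H10, with an interaction of -1.004 (adjusted p = 1.73e-06). The 2 are paralogs, and reads could be shared between them.

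In secretory lineages, goblet genes had 4 higher and 1 lower of 22 (22.7% called, and 2 and 1 without H90 a or M90 b), Paneth genes 1 and 1 of 13 (15.4%), enteroendocrine genes 3 and 2 of 32 (15.6%), and tuft genes 2 and 1 of 21 (14.3%). The share over all tested genes was 14.8%, so the last 3 lie near it. Cck, the hormone cholecystokinin, had 0.49 (adjusted p = 2.06e-06), and Fcgbp, a mucus protein, -0.45 (adjusted p = 0.000245). Among stress lists, ATF4 targets had 4 higher and 4 lower of 34 (23.5% called), and metal transport 6 and 3 of 27 (33.3%). The unfolded protein response had 1 and 3 of 27 (14.8%), heat shock proteins 0 and 2 of 17 (11.8%), and autophagy and lysosome 0 and 4 of 39 (10.3%). The interferon and MHC class I list had 3 higher and 3 lower of 42 (14.3%), and cell cycle inhibitors with D cyclins and p53 targets 3 and 1 of 25 (16%). Clock genes had 2 and 1 of 17 (17.6%), and ribosome biogenesis 0 and 4 of 36 (11.1%). Beside 14.8% over all tested genes, only ATF4 targets and metal transport stood clearly higher. The library set term and leaving out 1 library each moved some of these counts by more than 1.5 times. With the set term the interferon list had 3 calls in all, autophagy and lysosome 2 and heat shock proteins 1. ATF4 targets had 4 higher and 1 lower without M10 a, and the interferon list had 3 higher and 0 lower without M10 a, M90 c or H90 c. Ribosome biogenesis had 0 higher and 2 lower without M90 b, H90 a, H90 b, H10 a or H10 b, and autophagy and lysosome 0 higher and 2 lower without H90 b. Of 29 genes of glycolysis and hypoxia 0 higher and 0 lower interactions were called by edgeR (median 0.07), with 7 at an unadjusted p under 0.05. DESeq2 called 1 and limma-voom 0, while edgeR called 9 higher and 1 lower without a filter on low counts, 4 higher and 1 lower with non-robust shrinkage, and 6 higher and 0 lower without M90 c.

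Of the lists for other cell types, liver transcripts had 0 higher and 2 lower of 29 (6.9% called, beside 14.8% over all tested genes). The counts were 16 and 2 without H90 a and 0 and 1 without M90 b, H90 b, H90 c, H10 a, H10 b or Vehicle c. The 2 lower were Cps1 and Cyp3a11, and the call of Cyp3a11 was also lost with the library set term. Neither split H90 as Mup20 did. Cps1 had 494, 457 and 449 CPM in H90 a, b and c, and Cyp3a11 had 306, 330 and 321 CPM. Called or not, 25 of the 29 estimates were above 0, with a median interaction of 0.68. The median was 0.01 in the mouse-like and -0.68 in the human-like step. Mesenchymal markers had 0 and 1 of 4, which was Col1a1 and was called with single libraries left out only without H90 a, and immune and endothelial markers 0 and 0 of 9 by edgeR, with 1 of these at an unadjusted p under 0.05 and 0 called by DESeq2 or limma-voom. Summed levels of the 18 mesenchymal markers were 22 to 28.9 CPM in M90, 18.9 to 22.1 in M10, 24.5 to 28.9 in H90 and 13.3 to 17.8 in H10. For 20 immune and endothelial markers they were 11.9 to 13.2 CPM in M90, 9.36 to 11 in M10, 11.4 to 12.9 in H90 and 11.2 to 13.1 in H10. The 16 epithelial markers, which include Fabp6, summed to 32800 to 33900 CPM in M90, 31600 to 32500 in M10, 24500 to 26400 in H90 and 29600 to 30300 in H10, and had 2 higher and 5 lower interactions.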

How the data were processed

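RNA of 15 organoid libraries was poly-A selected and prepared with TruSeq, per the labels' protocols. The submitters' processing notes name bcl2fastq 2.17, STAR 2.5.2b, featureCounts 1.5.0-p3 and genome build mm10 (GRCm38). The deposited values are raw read counts per gene symbol; strand and multimapping settings are not given in the sources used here.

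Genes passing filterByExpr (13159) were scaled by TMM and tested in edgeR 4.0.16 (R 4.3.3) by robust quasi-likelihood F tests, two-sided, on 1 model of 5 group means over 15 libraries (10 residual degrees of freedom, common dispersion 0.00776). SEs were derived from the F statistics. Floors of 3 counts account for counting error alone. Coordinates come from GENCODE vM21 (21737 symbols matched) and promoters from RefSeq.

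The members, the 39 gene lists and the alternatives were chosen with earlier results of these data known. Named genes are 8 bile acid genes, the 10 largest interactions each way among called genes with at least 1 CPM in each pool, the 6 each way with the largest opposed steps at that level, the 4 each way with at least 5 CPM in 1 pool and under 1 CPM in another, and up to 4 genes of smallest p in each list. Predicted genes were passed over. Gclm, Srxn1, Cdc20, Ube2c and Mcm3 are named for their promoters, Mup20 and Col1a1 for the library sets. Alternatives used limma 3.58.1, DESeq2 1.42.0 and other scalings, filters and library subsets.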

Additional observations from a re-analysis of the deposited data

Results flagged for a closer look

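The interaction is itself a test of whether the step to the 90% share differs between the mouse-like and the human-like pools, and it passed for 1943 genes. The 6 genes each way with the largest opposed steps were singled out because each moved up in one model and down in the other, with the difference called by edgeR. Some ran up in the mouse-like pools: Igf2bp3 with an interaction of 2.62, Tnnt2 with 1.71, Nr0b2 with 1.55, Fgfbp3 with 1.39, Plekho2 with 1.36 and Fbp1 with 1.38. The others ran down there: Sema5a with -2.17, Fkbp5 with -3.32, Marcksl1 with -1.50, Tnfrsf1b with -1.86, Prim2 with -1.70 and Nek6 with -1.13. Fgfbp3 lost the call with the library set term. In the chi-square distance, which includes Rn45s, H90 a lay farther from H90 b and c than any other replicates from each other. Without H90 a 1746 interactions were called.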

How the results depend on the processing

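Interaction calls numbered 1442 with a library set term and 2144 by DESeq2, the lowest and highest of the alternative fits, and 1493 to 2072 with single libraries left out. The balance of directions depended on the scaling. Higher and lower calls were 1033 and 910 with TMM, 1026 and 918 with RLE scaling, 1235 and 746 with upper-quartile scaling and 1139 and 804 with library size only. All 1943 genes kept their sign under these scalings. The replicate block gave 2031 calls, 1917 of them among the 1943; same-letter libraries had residual correlations of -0.0237 to 0.0829, with no pair above 0.1, so the letters were not taken to pair libraries; the best match was still the own letter for 11 of 15 libraries, a hint from the data and not the design. Calls for M90 minus M10 ran from 4545 to 5860, for H90 minus H10 from 3479 to 5021, and opposed steps from 148 to 216. Respiratory chain calls ran from 13 to 21 with single libraries left out, the lowest without H10 c, and the cause was not tested. Col1a1 reversed to 3.15 with the library set term (adjusted p = 0.482), the fit that removes the difference between the library sets. Of 164 named genes 130 kept the same verdict throughout. Of genes under 2 CPM 2.24% were called, and small differences at low levels may not be detectable at this depth.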
